A study of Mus musculus with 6 samples.

Results

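The genes described here are 10 that answer quickly to growth signals and stress: Fos, Fosb, Jun, Junb, Jund, Atf3, Egr1, Klf4, Klf6 and Ier3. They were taken by symbol, with no threshold on their values, from a table of 32061 genes, and all 10 were found and had enough reads to be tested. RNA came from hepatocytes freed by collagenase perfusion from livers of mice aged 10 to 12 weeks. The 3 senescent libraries came from AhCre+Mdm2fl/fl mice, in which Cre from a ligand-induced promoter (the aryl hydrocarbon receptor switches it on) removes the conditional Mdm2 allele. The 3 healthy libraries came from AhCre- mice; the labels do not say which Mdm2 alleles these carried. Both groups had received β-naphthoflavone, a ligand of that receptor, in corn oil at 20 mg/kg for 48 h, so ligand exposure is shared, while presence of Cre and loss of Mdm2 cannot be told apart. The labels do not say whether each library is a separate mouse, and p-values therefore measure the spread between these libraries.

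Immediate early genes are transcribed within minutes of a stimulus from factors that are already in the nucleus, mainly through MAP kinases, the serum response factor with its ternary complex partners, and CREB. Fos and Jun proteins pair through leucine zippers to form AP-1, which binds its own DNA element; Fos proteins need a Jun partner, while Jun proteins can also pair with each other or with ATF proteins. In liver these genes are known for their rapid induction after partial hepatectomy and during the isolation of hepatocytes, and c-Jun is needed for normal liver regeneration. The KLF factors are zinc finger proteins that bind GC-rich and CACCC elements.

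Values are in CPM, each library's counts over its library size after TMM scaling. Total counts were 28799392 to 33267299 per library. Mdm2 reads were more frequent in the senescent libraries, at 463 to 501 CPM against 19.0 to 22.7 CPM; a count over the whole gene does not check the deletion, since the deleted exons are not named in the labels. The p53 target Cdkn1a had 653 to 773 CPM against 21.3 to 54.3 CPM. The sum of hepatocyte markers was 67138 to 80077 CPM in the senescent group against 112535 to 132302 CPM in the other, and 5 of 8 fell, Alb and Serpina1a among them. For this and the lists below, 20.7% of all tested genes fell and 20.4% rose. Macrophage markers summed to 256 to 513 and 102 to 276 CPM, and 4 of 15 rose (9 by DESeq2); the most abundant, Clec4f and Cd5l, did not pass. Stellate cell markers summed to 30.6 to 46.2 and 11.5 to 19.2 CPM (7 of 11 tested rose). Cholangiocyte markers summed to 11.6 to 16.4 and 4.70 to 8.12 CPM (of 8, 4 were tested and 2 rose). Neutrophil markers summed to 3.24 to 4.05 and 0.530 to 1.45 CPM (of 7, 3 were tested and 3 rose). Among these rises, stellate Pdgfra and biliary Krt19 had under 10 counts in every healthy library. They passed the filter on low counts only through the senescent libraries. Endothelial markers summed to 149 to 196 and 142 to 198 CPM, with 1 of 12 higher and 1 lower. The 8 lymphocyte markers were too low to be tested, at 0.583 to 1.27 and 0.247 to 1.21 CPM in sum. Among defining markers, the stellate gene Acta2, the lymphoid gene Klrb1c and the biliary gene Tff2 had 0 counts in every healthy library, which allows up to 3 counts in each. In such bulk samples fewer cells of a type and less RNA per cell cannot be told apart.

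In senescent hepatocytes 5 of the 10 genes rose and 0 fell. Klf6 rose 5.23-fold, Egr1 3.12-fold, Atf3 2.99-fold, Fos 2.55-fold and Jun 2.15-fold, as ratios of mean CPM. The other 5, Fosb, Junb, Jund, Klf4 and Ier3, did not pass the test, which was edgeR's quasi-likelihood test with Benjamini-Hochberg adjustment over all 12949 tested genes at an adjusted p under 0.05. For comparison, 41.1% of all tested genes passed, 20.4% as higher and 20.7% as lower. Without adjustment, 0 of the 10 were lower at p under 0.05, and DESeq2 and limma-voom likewise found 5 higher and 0 lower. The values of the groups did not overlap for 6 of the 10, all higher in senescent libraries, against 54.0% of all genes (26.8% higher and 27.2% lower). Their median log2 fold change, senescent minus healthy, was 1.17 beside 0.01 for all tested genes.

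**Figure D1:**
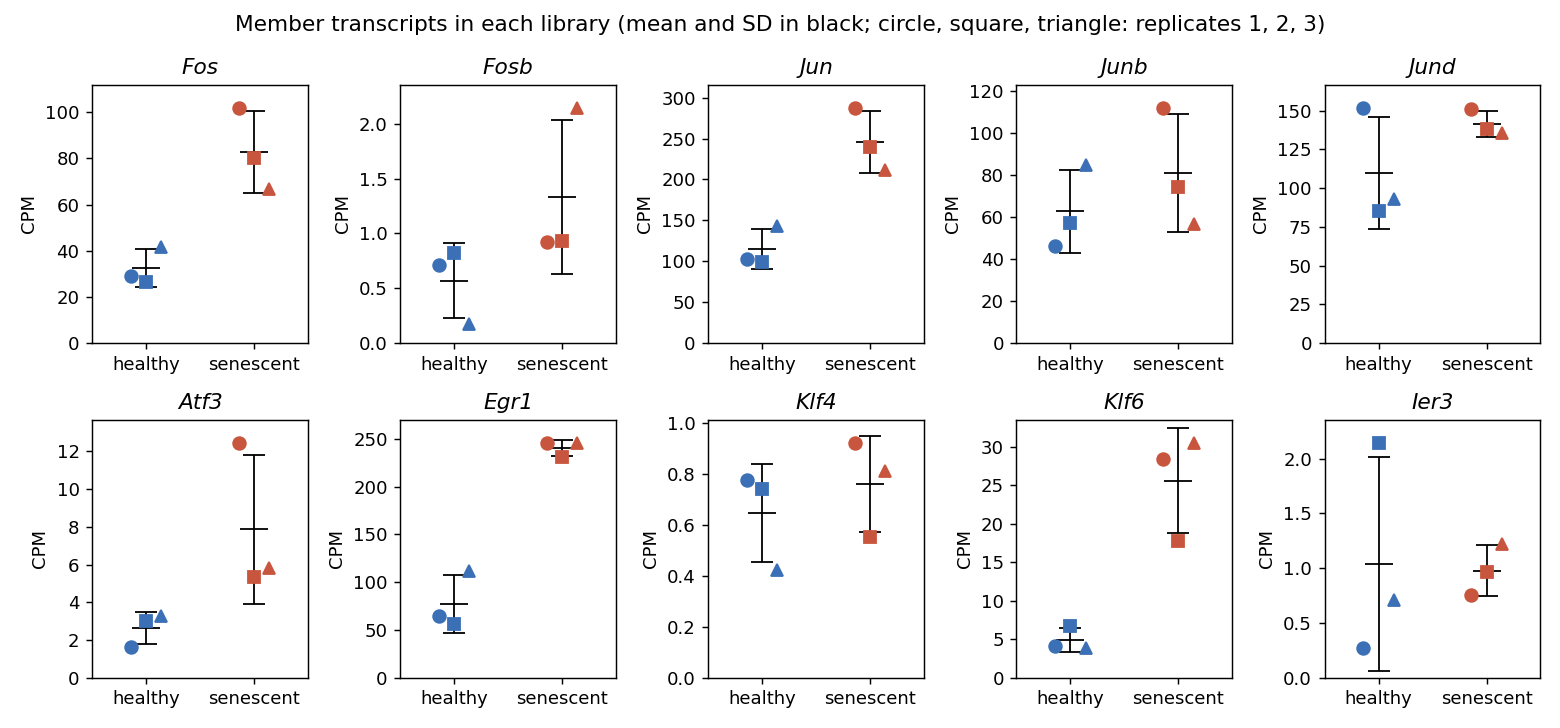
CPM of each of the 10 genes in every library on linear axes from 0, healthy in blue and senescent in red, with the group mean and SD (n = 3) in black. Fos, Jun, Atf3, Egr1, Klf6 and Fosb have every senescent library above every healthy library, and Junb, Jund, Klf4 and Ier3 overlap.

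**Figure D2:**
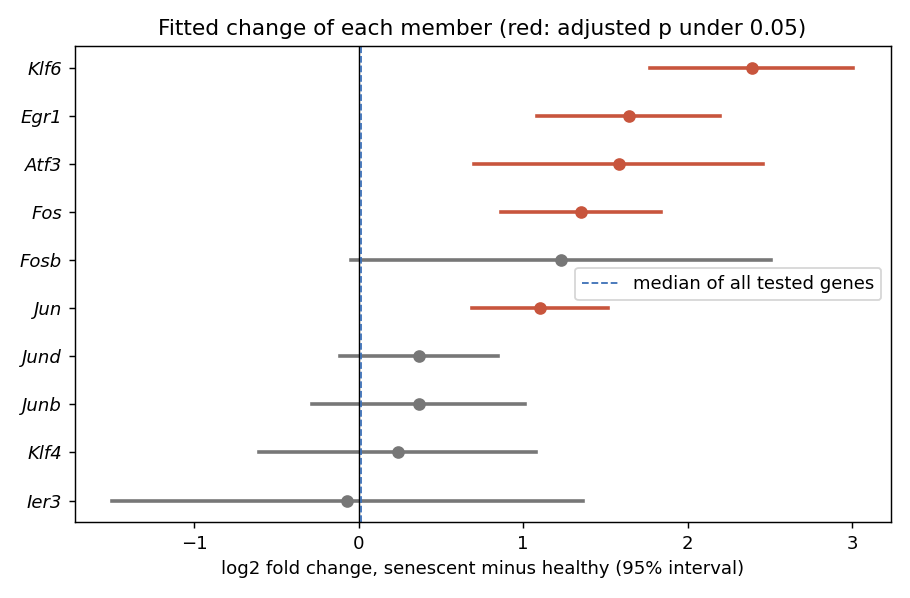
Log2 fold change (senescent minus healthy) of the 10 genes with 95% intervals from the fit, red for an adjusted p under 0.05 and grey otherwise; the dashed line is the median of all tested genes. Klf6 lies highest at 2.39, the other called genes lie between 1.10 and 1.64, and the intervals of the other 5 include 0.

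The stretches just before the transcript starts of Fos, Jun and Klf6 are shown as examples, picked because they carry elements of the CREB and AP-1 type. Jun and Klf6 hold the same 8 letters. Whether these elements bear on the rises was not tested. RefSeq's GRCm38.p6 promoter table matched 9 of the 10 genes, all but Egr1, and the 250 bases before the start were searched on both strands. The RefSeq starts of Jund, upstream of the GENCODE span given here, and of Atf3, inside it, are not the starts of those spans. Capitals mark TGACATCA, a variant of the AP-1 and CRE elements, TGACG, the core of the CRE, and TATAAA, the TATA box. A full CRE, TGACGTCA, contains TGACG and would be counted under both. The windows are chr12:85473640-85473889 on the plus strand for Fos, chr4:95052223-95052472 on the minus strand for Jun and chr13:5861239-5861481 on the plus strand for Klf6, from which the last 7 bases, annotated as exon, were left off.
Fos: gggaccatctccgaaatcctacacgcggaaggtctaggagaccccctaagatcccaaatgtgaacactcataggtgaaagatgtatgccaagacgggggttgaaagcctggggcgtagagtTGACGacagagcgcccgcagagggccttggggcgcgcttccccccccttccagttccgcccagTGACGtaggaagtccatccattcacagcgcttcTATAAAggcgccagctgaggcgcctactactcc
Jun: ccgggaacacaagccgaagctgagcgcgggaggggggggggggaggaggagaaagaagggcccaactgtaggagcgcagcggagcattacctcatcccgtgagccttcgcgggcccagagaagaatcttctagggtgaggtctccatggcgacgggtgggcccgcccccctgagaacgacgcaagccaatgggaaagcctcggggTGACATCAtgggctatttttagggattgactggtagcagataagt
Klf6: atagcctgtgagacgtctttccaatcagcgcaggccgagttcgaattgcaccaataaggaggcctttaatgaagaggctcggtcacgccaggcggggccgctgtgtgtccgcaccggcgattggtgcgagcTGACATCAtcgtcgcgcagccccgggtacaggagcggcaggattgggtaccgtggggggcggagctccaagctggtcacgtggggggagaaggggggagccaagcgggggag
Jun had TGACATCA from 45 to 38 bases before its start (bases -45 to -38) and Klf6 at bases -119 to -112, an element that 3.02% of 27025 RefSeq promoters of this length hold. TGACG lay at -129 and at -66 in Fos, and was found in 5 of the 9 against 17.9% of all promoters. These were Fos and Atf3, which rose, and Fosb, Junb and Klf4, which did not pass. In Atf3 it lay at bases -7 to -3 on the opposite strand, within bases annotated as exon. TATAAA was found in Fos alone of the 9, at -33, against 13.0% of all. The GC box GGGCGG was found in 7 of the 9 and in 32.9% of all, and the EGR site GCGGGGGCG, which contains no GC box but can overlap it, in Fosb and Klf4 and in 2.56% of all. The 9 windows were 47.6% (Jund) to 74.0% (Klf4) G or C, beside a median of 52.0% over all promoters. Only Jund lay below that median, and the part of base composition in these shares was not tested. CCAAT was found in Jun, Junb, Klf6 and Ier3 and in 34.5% of all. None of the 9 windows held the full CRE TGACGTCA (1.62% of all), the AP-1 site TGANTCA (6.87%), the CArG box of the serum response factor (1.40%) or the p53 decamer (7.18%), which says only that these letters are not in these windows.

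Of the Fos family, Fos rose and Fosb did not pass. Fos (ENSMUSG00000021250; GRCm38 chromosome 12, 85473890 to 85477273), the AP-1 subunit of the first minutes of a response, had 102, 80.1 and 66.7 CPM in senescent replicates 1, 2 and 3 and 29.2, 26.4 and 41.8 CPM in healthy replicates 1, 2 and 3. The lowest senescent library was above the highest healthy library. The log2 fold change was 1.35 ± 0.21 (SE; edgeR adjusted p = 0.00165), larger than for 92.2% of tested genes. Fosb (ENSMUSG00000003545; chromosome 7, 19302696 to 19310051), a related subunit whose splice product ΔFosB is known for its stability, rested on 5 to 74 counts per library. It had 0.921, 0.933 and 2.14 CPM in the senescent and 0.707, 0.817 and 0.177 CPM in the healthy libraries. The groups lay next to each other without overlapping, and the highest value, of senescent replicate 3, and the lowest, of healthy replicate 3, stood well apart from the rest. Its log2 fold change of 1.23 ± 0.56 did not pass (edgeR adjusted p = 0.111), with an interval from -0.05 to 2.51. Scaled to total library size, a choice that moves the median of all genes from 0.01 to 0.33 and the share of higher genes among the calls from 49.7% to 79.1%, Fosb passed at 1.56 (edgeR adjusted p = 0.0496).

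In the Jun family Jun rose, and Junb and Jund did not pass. Jun (ENSMUSG00000052684; chromosome 4, 95049034 to 95052222), the strongest activator of the family, had 287, 240.2 and 212 CPM in senescent and 102, 98.8 and 142 CPM in healthy replicates 1, 2 and 3. As for Fos, every senescent library lay above every healthy library, senescent replicate 1 was the highest of its group and healthy replicate 3 of the other. Its log2 fold change was 1.10 ± 0.18 (edgeR adjusted p = 0.00199). Junb (ENSMUSG00000052837; chromosome 8, 84974484 to 84978718), a weaker activator that can hold Jun back, had 112, 74.3 and 56.7 CPM in senescent and 46.4, 57.2 and 84.8 CPM in healthy libraries. The groups overlapped, and the log2 fold change was 0.37 ± 0.28 (edgeR adjusted p = 0.329; interval -0.28 to 1.01). Exons of Junb overlap those of Prdx2 on the opposite strand, which fell (log2 fold change -0.82 ± 0.14, edgeR adjusted p = 0.00235), and since the strand setting of the counting is not given, reads of the overlap could belong to either gene. Jund (ENSMUSG00000071076; chromosome 8, 70698949 to 70700616), the member of the family that is present in resting cells, had 151, 138 and 135 CPM in senescent and 152, 85.3 and 92.8 CPM in healthy libraries. Healthy replicate 1 was as high as the senescent libraries and the other healthy ones were lower. The log2 fold change was 0.37 ± 0.21 (edgeR adjusted p = 0.194; interval -0.11 to 0.84). Without healthy replicate 1 it was 0.66 and passed (edgeR adjusted p = 0.00500), and with total library size 0.68 (0.0269). Jun and Jund also have annotated antisense genes over their exons, which were not analysed here.

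Per kilobase of exonic sequence (RPKM), the makeup of the Jun family differed between the groups. Jun made up 39.3%, 39.6% and 38.5% of the summed Jun, Junb and Jund RPKM in senescent and 22.4%, 29.0% and 32.6% in healthy libraries. The senescent libraries were close to each other and above all healthy ones. Jund was the largest share in all 6 libraries, with 40.6% to 63.5% in the healthy and 39.6% to 47.2% in the senescent ones, an overlapping range. The RPKM ratio of Fos to Jun was 0.427 to 0.481 in the senescent group against 0.362 to 0.397 in the healthy group, and that of Fos to Junb 0.890 to 1.15 and 0.452 to 0.616. Neither ratio overlapped between the groups, and no test was run on these ratios.

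Most other possible partners did not pass the test. Of 12 Fos, Jun, ATF and MAF partner genes, 9 were tested, 2 rose and 0 fell, with a median log2 fold change of 0.39. The share called was 22.2%, beside 41.1% of all genes. At an unadjusted p under 0.05 edgeR found 3 higher and 0 lower, and DESeq2 called 3 higher and 0 lower. Jdp2, a repressor that pairs with Jun, rose from 0.512 ± 0.091 to 1.48 ± 0.32 CPM (SD, n = 3 libraries per group), and Atf7, a partner of Jun proteins, from 12.2 ± 0.050 to 18.3 ± 1.7 CPM (edgeR adjusted p = 0.00613 and 0.00544).

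Atf3 (ENSMUSG00000026628; chromosome 1, 191170296 to 191218039), a stress-induced member of the ATF family that can repress when paired with itself and is a textbook target of both p53 and the integrated stress response, had 12.4, 5.33 and 5.82 CPM in senescent and 1.65, 3.00 and 3.25 CPM in healthy libraries. The groups did not overlap, but senescent replicate 1 stood well above the other senescent libraries. The log2 fold change was 1.58 ± 0.38 (edgeR adjusted p = 0.0119), and without senescent replicate 1 it was 1.11 (edgeR adjusted p = 0.0276). Of 10 genes of the integrated stress response around Atf3, all tested, 1 rose and 5 fell, with a median of -0.52. Atf4, the central factor of that response, averaged 84.7 ± 7.9 CPM in the healthy and 70.4 ± 12.6 CPM in the senescent group, and Ddit3 4.95 ± 0.82 and 5.58 ± 1.05 CPM, neither passing. Atf5 fell from 494 ± 59 to 243 ± 24 CPM and Chac1, which degrades glutathione, from 8.29 ± 6.10 to 1.06 ± 0.32 CPM (edgeR adjusted p = 0.000919 and 0.00801; Chac1 was not called by limma-voom, 0.0606). The single gene of the list that rose was Sesn2, which is also a p53 target, from 10.6 ± 2.0 to 125 ± 12 CPM. The part of p53 or of the integrated stress response in the rise of Atf3 was not tested.

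Egr1 (ENSMUSG00000038418; chromosome 18), a zinc finger factor induced through the serum response factor, had 245.4, 231 and 245.1 CPM in senescent and 64.1, 55.7 and 111 CPM in healthy replicates 1, 2 and 3. The senescent libraries were nearly equal, whereas healthy replicate 3 had clearly more than the other healthy ones and still less than any senescent library. The log2 fold change was 1.64 ± 0.24 (edgeR adjusted p = 0.00124), above 94.2% of tested genes. Without healthy replicate 3 it was 2.00 (edgeR adjusted p = 6.0e-05). Its relatives Egr2 and Egr3 had at most 19 counts in any library and were not tested, and Egr4 had 0 counts in all.

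Of the KLF genes, Klf6 rose and Klf4 did not pass. Klf6 (ENSMUSG00000000078; chromosome 13, 5861482 to 5870394), a factor known as an early response gene and candidate tumour suppressor in liver, had 28.5, 17.8 and 30.5 CPM in senescent and 4.18, 6.65 and 3.85 CPM in healthy libraries. Even the lowest senescent library had well above the highest healthy level. Its log2 fold change of 2.39 ± 0.27 was the largest of the 10 genes (edgeR adjusted p = 0.000320), above 96.9% of all tested genes. Klf4 (ENSMUSG00000003032; chromosome 4, 55527143 to 55532466), a textbook p53 target that can induce Cdkn1a and is known from epithelia and endothelium, rested on 12 to 33 counts per library. It had 0.921, 0.554 and 0.811 CPM in senescent and 0.775, 0.739 and 0.424 CPM in healthy libraries. The groups overlapped, and the log2 fold change was 0.24 ± 0.37 (edgeR adjusted p = 0.631; interval -0.60 to 1.08). The RPKM ratio of Klf6 to Klf4 was 21.5 to 26.1 in senescent and 3.74 to 6.31 in healthy libraries, a description without a test.

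Most of the rest of the KLF and SP family did not pass the test. Of 20 genes 16 were tested, 2 rose, 3 fell and 11 did not pass, with a median log2 fold change of -0.17; 31.2% were called, against 41.1% of all genes. Klf7 rose from 2.47 ± 0.45 to 9.92 ± 0.91 CPM and Klf3, a repressor, from 42.5 ± 8.5 to 81.3 ± 17.6 CPM (edgeR adjusted p = 0.000105 and 0.00607). Klf1, the erythroid factor, fell from 2.59 ± 0.84 to 0.737 ± 0.145 CPM, and Klf15, a factor of fasting metabolism in liver, from 122 ± 8 to 74.0 ± 21.0 CPM (edgeR adjusted p = 0.00310 and 0.0224). The fall of Klf15 was not called with total library size (log2 fold change -0.41, edgeR adjusted p = 0.120). Without healthy replicate 1, 6 of the family fell.

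Ier3 (ENSMUSG00000003541; chromosome 17, 35821684 to 35822923), an early gene that modulates ERK signalling and cell survival, rested on 8 to 55 counts per library. It had 0.753, 0.962 and 1.22 CPM in senescent and 0.269, 2.14 and 0.707 CPM in healthy libraries. Healthy replicate 2 was the highest of all 6 libraries and healthy replicate 1 the lowest, so that the senescent libraries lay inside the healthy range. The log2 fold change was -0.07 ± 0.63 (edgeR adjusted p = 0.937; interval -1.50 to 1.36), and 0.99 without healthy replicate 2 (0.166). A change of Ier3 was therefore not detectable with this spread between healthy libraries.

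Levels per length spread over a wide range. In healthy libraries the order by mean RPKM was Jund (65.9 ± 21.8, SD, n = 3), Jun (35.9 ± 7.6), Junb (27.3 ± 8.6), Egr1 (17.2 ± 6.7) and Fos (13.8 ± 3.5). The others were near or below 1: Atf3 (1.22 ± 0.40), Klf6 (1.11 ± 0.35), Ier3 (0.919 ± 0.865), Klf4 (0.212 ± 0.063) and Fosb (0.0908 ± 0.0549). The ranges of neighbours in this order did not overlap between Jund and Jun, between Fos and Atf3 or between Klf4 and Fosb, and overlapped for all other neighbours. In senescent libraries Egr1 and Fos stood above Junb, with 53.7 ± 1.8, 35.2 ± 7.5 and 35.2 ± 12.2 RPKM. Egr1 lay above all Fos values there, but the ranges of Fos and Junb overlapped. Klf6, at 5.83 ± 1.56 RPKM, stood before Atf3 at 3.65 ± 1.84 RPKM with overlapping ranges. Jund and Jun remained the highest, at 84.9 ± 5.1 and 77.2 ± 11.9 RPKM, and their ranges overlapped in this group.

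**Figure D3:**
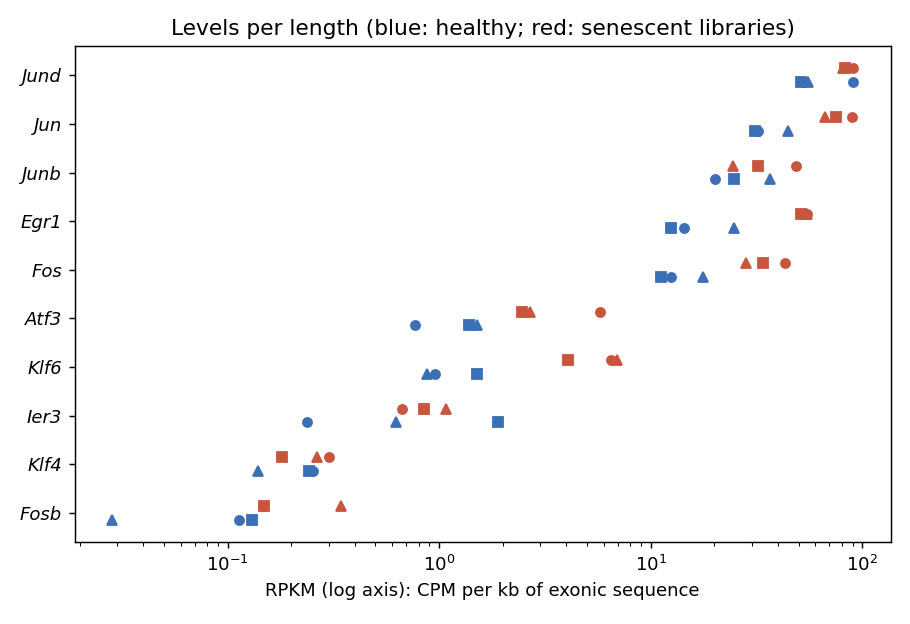
RPKM (log axis) of the 10 genes in each library, healthy in blue and senescent in red, ordered by healthy mean; circles, squares and triangles are replicates 1, 2 and 3. Jund, Jun, Junb, Egr1 and Fos lie above 10 RPKM in every library, and Fosb and Klf4 below 1.

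Within each group some of the 10 genes were highest in the same library. Senescent replicate 1 was the highest senescent library for 7 of the 10 genes (Fos, Jun, Junb, Jund, Atf3, Egr1 and Klf4) and healthy replicate 3 the highest healthy one for 5 (Fos, Jun, Junb, Atf3 and Egr1). For Egr1 the senescent margin was small (245.4 against 245.1 CPM), and Jund and Klf4 were highest in healthy replicate 1. The share of all genes with such an order was not computed. Klf6, Fosb and Ier3 had another order, highest in senescent replicate 3 and in healthy replicate 2. Healthy replicate 3 also stood apart in the inducible heat shock genes Hspa1a and Hspa1b, and a shared cause was not tested. Hspa1a had 3.91, 5.45 and 23.0 CPM in healthy replicates 1, 2 and 3 and 8.09, 9.50 and 8.16 CPM in senescent ones, and Hspa1b 7.14, 11.4 and 52.4 CPM and 17.2, 22.1 and 14.5 CPM. The heat shock list as a whole did not rise: of 10 tested genes 0 rose (at an unadjusted p under 0.05, 0 by edgeR, 0 by DESeq2 and 1 by limma-voom; after adjustment, 0 by each) and 2 fell, with a median of -0.26. The falls were those of Hspd1, from 510.2 ± 32.7 to 338 ± 32 CPM, and Hsph1, from 70.8 ± 30.7 to 38.5 ± 5.6 CPM (edgeR adjusted p = 0.00753 and 0.0316). Neither was called with total library size (0.0915 and 0.113), nor Hsph1 without any single senescent replicate, and without healthy replicate 3 the list had 3 rises. Without healthy replicate 3 the rises of Fos, Jun, Egr1 and Atf3 were larger, with log2 fold changes of 1.57, 1.29, 2.00 and 1.76, and that of Klf6 slightly smaller at 2.24, and all 5 were called. The macrophage marker sum was 231, 276 and 102 CPM in healthy and 392, 256 and 513 CPM in senescent replicates 1, 2 and 3, and the part of macrophages in the levels of the 10 genes was not tested.

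**Figure D4:**
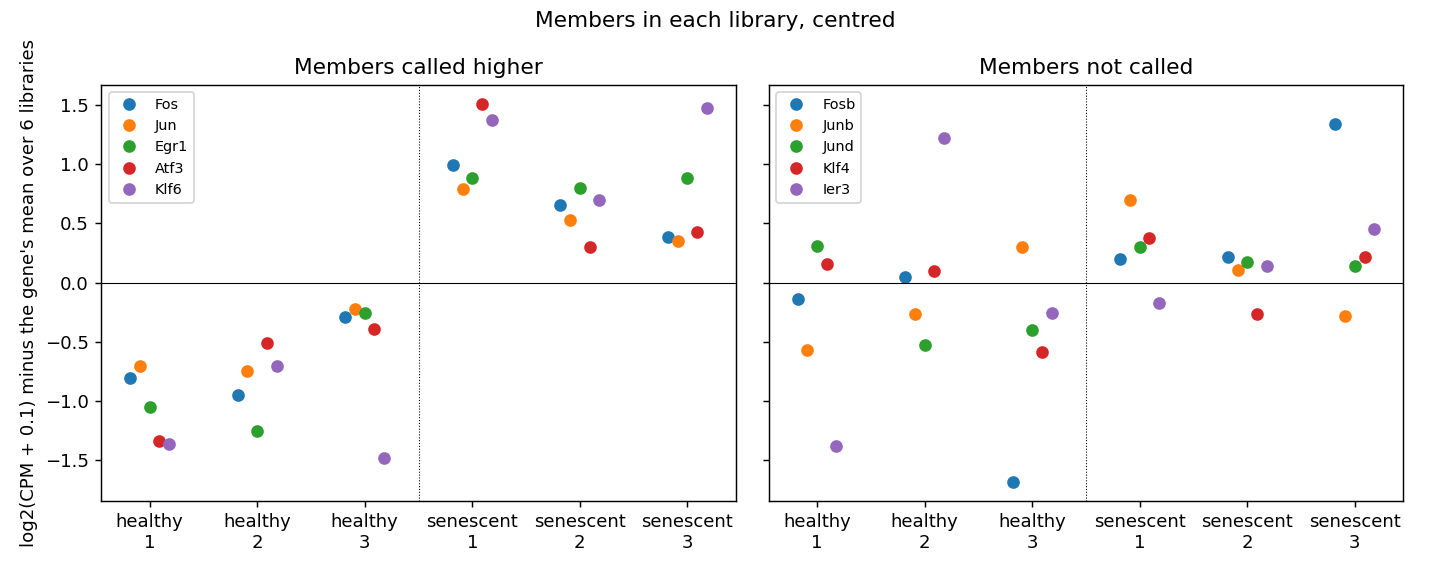
Log2(CPM + 0.1) of each gene minus its own mean over the 6 libraries, by library, for the called genes on the left and the others on the right. All called genes are below 0 in healthy and above 0 in senescent libraries, and Fos, Jun, Egr1 and Atf3 are highest among healthy libraries in replicate 3.

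Of 22 MAP kinase, SRF and ternary complex factor genes, all tested, 7 rose, 4 fell and 11 did not pass, with a median of 0.27. The share called was 50.0%, beside 41.1% of all genes. In the JNK branch, whose kinases phosphorylate Jun, Map2k4 rose from 29.3 ± 2.5 to 84.3 ± 12.0 CPM and Mapk9 from 47.1 ± 1.9 to 115 ± 5 CPM (edgeR adjusted p = 0.000100 and 4.9e-05). Map2k2, which encodes the ERK-activating kinase MEK2, fell from 108 ± 11 to 69.9 ± 4.8 CPM and Map2k6, which encodes a kinase that activates p38, from 2.33 ± 1.13 to 0.709 ± 0.229 CPM (edgeR adjusted p = 0.00397 and 0.0128). The fall of Map2k2 was not called with total library size (0.0580), under which 13 of these genes rose and 1 fell. Without healthy replicate 2 or any single senescent library, the falls numbered 2. Srf itself was at 9.84 to 13.0 CPM in the healthy and 13.2 to 15.0 CPM in the senescent group and did not pass (edgeR adjusted p = 0.159).

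Among 16 genes of MAP kinase phosphatases and ERK feedback, 13 were tested, 3 rose and 1 fell, with a median of 0.37. The share called was 30.8%, beside 41.1% of all genes. Dusp8, a phosphatase of JNK and p38, rose from 1.03 ± 0.62 to 9.55 ± 2.48 CPM, and Dusp6, the ERK phosphatase, from 51.7 ± 25.0 to 136 ± 21 CPM (edgeR adjusted p = 0.000456 and 0.00784). The ERK inhibitor gene Spry4 fell from 12.7 ± 6.7 to 2.46 ± 0.82 CPM (0.00414). Dusp1, itself an immediate early gene, ranged from 69.6 to 121 CPM in healthy and, overlapping, from 51.5 to 87.7 CPM in senescent libraries.

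Of 18 textbook targets of AP-1, 13 were tested, 10 rose and 1 fell, with a median of 1.12 over the tested genes. Over all genes 20.4% rose and 20.7% fell. Of the 10 that rose, 5 (Mmp9, Mmp12, Plau, Plaur and Ccl2) had under 10 counts in every healthy library and so passed the filter only through the senescent libraries; neither the count nor the median describes the whole list. Plaur, the urokinase receptor gene, with 4, 5 and 4 counts in the healthy libraries, rose from 0.157 ± 0.033 to 0.770 ± 0.296 CPM and Spp1 (osteopontin) from 2.90 ± 1.24 to 9.37 ± 1.27 CPM (edgeR adjusted p = 0.00613 and 0.00274). Vegfa fell from 113 ± 12 to 88.9 ± 1.5 CPM (edgeR adjusted p = 0.0398), a call that was lost with total library size, without the filter on low counts and without any single library other than healthy replicate 1 (adjusted p 0.0830 to 0.173 in the latter). The count of rises was 6 without healthy replicate 3, without senescent replicate 1 or without senescent replicate 3, and 5 after a filter at a mean of 1 CPM. Several of these genes are also expressed by macrophages, stellate cells or bile duct cells, and Spp1 is in the cholangiocyte list. The stellate and cholangiocyte marker sums, given above, were higher in every senescent library than in any healthy one. Macrophage sums had a higher mean in the senescent group, but the ranges overlapped (256 to 513 against 102 to 276 CPM). The part of these cells in the rises was not tested.

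Other immediate early genes moved in both directions, with more rises than falls. Of 42, 36 were tested, 11 rose, 4 fell and 21 did not pass, with a median of 0.14. Among the 11, Ier5l had under 10 counts in every healthy library and passed the filter only through the senescent libraries. The share of 41.7% called is near the 41.1% of all genes, while 30.6% rose, beside 20.4% of all genes. Summed over the 42 genes, levels were 3329 to 3511 CPM in senescent and 2074 to 2973 CPM in healthy libraries. No test was run on this sum. Plk2, a polo-like kinase gene, rose from 5.30 ± 1.85 to 122 ± 3 CPM and Btg2, an antiproliferative gene, from 35.3 ± 6.9 to 403 ± 20 CPM (edgeR adjusted p = 8.0e-06 and 3.0e-06), and both are textbook p53 targets. Zfp36l2, which destabilises AU-rich transcripts, fell from 53.3 ± 23.4 to 14.7 ± 2.6 CPM and Phlda1 from 137 ± 65 to 42.9 ± 15.2 CPM (edgeR adjusted p = 0.00166 and 0.00682). Without healthy replicate 2 or without senescent replicate 3 the falls numbered 2. Nr4a3, an orphan nuclear receptor gene, had 0 counts in every healthy library and 8, 9 and 9 counts in the senescent ones, and was not tested.

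**Figure D5:**
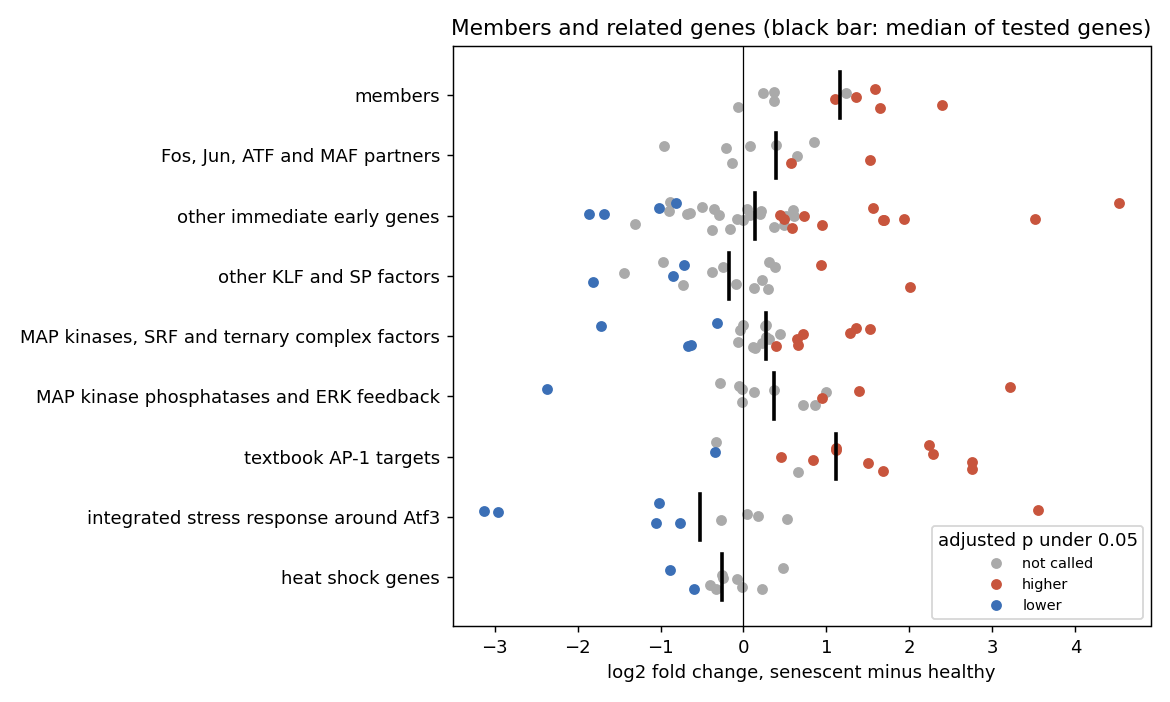
Log2 fold changes (senescent minus healthy) of the tested genes among the 10 members and in each related list, red for higher and blue for lower at an adjusted p under 0.05, grey for the rest, with the median as a black bar. The medians run from -0.52 in the integrated stress response list to 1.17 among the 10 members, and the other immediate early genes spread to both sides of 0.

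The profile of Fos over the 6 libraries was compared with 11517 other genes with a mean of at least 1 CPM. The measure was the root mean square difference of centred log2(CPM + 0.1). The nearest were Plk4 (0.119), Camkmt (0.179), Ets2 (0.185), Zfp704 (0.193) and Rab27a (0.201). Plk4 rested on only 9 to 66 counts per library, Camkmt on 15 to 69 and Rab27a on 27 to 107. Of these, Ets2 encodes an ETS factor that ERK phosphorylates; it had 60.5, 43.0 and 44.4 CPM in senescent and 14.1, 18.7 and 25.9 CPM in healthy libraries. These genes were picked for this likeness, so their profiles are a description only. Among the 10 genes, Jun was nearest to Fos with a difference of 0.137, and 1 outside gene was closer. Egr1 followed at 0.270 with 38 outside genes closer, and Atf3 at 0.381 with 391. Klf6 was at 0.721 with 4747 genes closer. The measure is not scaled for the size of a change. The larger log2 fold change of Klf6 (2.39, against 1.35 for Fos) therefore adds to its difference.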

How the data were processed

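Polyadenylated RNA of hepatocytes was sequenced in 3 senescent and 3 healthy libraries from a stranded kit, per the labels' protocols. The authors deposited a single table of raw read counts per gene. STAR 2.7.1a, featureCounts, cutadapt 1.16, FastQC, MultiQC 1.3 and DESeq2 1.34.0 are named with GRCm38 in the submitters' processing notes. No source used here gives the annotation release or the strand setting of the counting. A column whose code differs by 1 letter from that of healthy replicate 2 was taken as that library. Symbols were found for 31976 IDs, and coordinates and exonic lengths come from GENCODE M21 on GRCm38. Every row carried a mouse Ensembl gene ID.

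Counts were tested with edgeR 4.0.16 in R 4.3.3 (quasi-likelihood F test, two-sided, filterByExpr with a minimum count of 10 and total of 15, TMM scaling, no covariate), with Benjamini-Hochberg adjustment over 12949 genes. The SE is the log2 fold change over the square root of F, and intervals are 95%. An exact permutation test of 3 against 3 libraries was not used. RPKM is CPM per kb of all annotated exons and ignores which isoform is expressed. The allowance of 3 counts for a count of 0 covers counting error only, because PCR copies are not independent molecules. The test was tried on simulated counts. Alternatives were DESeq2 1.42.0, limma-voom (limma 3.58.1), DESeq2-type size factors, total library size, removal of the 50 most abundant genes, no filter, a mean of at least 1 CPM, a stricter threshold (adjusted p under 0.01), a block for the replicate number, and each library left out.

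The 10 genes and all lists were chosen with earlier results of these data known. Beside the 10, the rule named, per list, the 2 risen and 2 fallen genes with the smallest p, Mdm2 and Cdkn1a, the 5 genes nearest to Fos, and the 2 most abundant genes of each marker list, of which the text gives mainly the sums. Prdx2, Atf4, Ddit3, Srf, Dusp1, Hspa1a, Hspa1b, Nr4a3, Ier5l, Egr2, Egr3, Egr4 and the markers at 0 were named after their values had been seen.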

Additional observations from a re-analysis of the deposited data

How the results depend on the processing

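The rises of Fos, Jun, Egr1 and Klf6 kept their direction and stayed called in all 15 alternatives, with log2 fold changes of 1.20 to 1.66, 1.00 to 1.41, 1.45 to 2.00 and 2.24 to 2.71. Atf3 was lost only at an adjusted p under 0.01 (log2 fold change 1.58, edgeR adjusted p = 0.0119). The number of the 10 called higher ran from 4 to 7, and 0 were called lower in each. Under total library size Fosb (1.56) and Jund (0.68) were also called, Jund also without healthy replicate 1 (its range with single libraries left out was 0.21 to 0.66). Ier3 turned positive with limma-voom (0.39), total library size (0.24) and the replicate block (0.24), and lay between -0.54 and 0.99 when single libraries were left out. In all of these Ier3 was not called.

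Over all genes 2644 were higher and 2680 lower. At an adjusted p under 0.01 the counts were 1570 and 1498, and with total library size 4861 and 1285; leaving out single libraries gave 1489 (without senescent replicate 3) to 2789 lower genes. In the related lists an adjusted p under 0.01 gave 6 higher and 2 lower other immediate early genes, 1 lower KLF or SP gene, 1 lower MAP kinase gene, 4 higher and 0 lower AP-1 targets, 3 lower stress response genes and 1 lower heat shock gene. Total library size gave 4 higher Fos, Jun, ATF and MAF partners, 2 lower other immediate early genes, 1 lower KLF or SP gene, 13 higher and 1 lower MAP kinase genes, 5 higher phosphatase and feedback genes, 0 lower AP-1 targets, and 1 higher and 0 lower heat shock genes. A filter at 1 CPM gave 5 higher AP-1 targets and no filter 0 lower ones. With single libraries left out, lower partners ran from 0 to 1 (the latter without healthy replicate 1), lower other immediate early genes from 2 to 6, lower KLF or SP genes from 2 to 6, lower MAP kinase genes from 2 to 3, AP-1 targets from 6 to 11 higher and 0 to 1 lower, and heat shock genes from 0 to 3 higher and 1 to 2 lower. The cause of these shifts was not tested. Of the macrophage markers edgeR called 4 higher, DESeq2 9 and limma-voom 7.

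Replicate numbers are shared between the groups. Deviations of same-numbered libraries correlated at 0.23, -0.17 and -0.04, and those of different-numbered ones at -0.33 to 0.38. With 3 libraries per group these values cannot settle whether the numbers pair the libraries. With the replicate block Fos was at 1.36 and Klf6 at 2.38, and 5 of the 10 were called higher. Fosb, Klf4 and Ier3 had the fewest reads of the 10, 5 to 74 counts per library. Klf4 was not tested under the filter at 1 CPM.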
